A study of Mus musculus with 12 samples.

Results

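The early response of Ddx55-knockout (KO) naive CD4+ T cells to stimulation was followed in 4 of the 12 RNA sequencing libraries of the series, 2 taken at 0 h and 2 taken at 8 h. They were chosen by their labels alone, as the KO libraries of those times, and both the gene counts and the counts at repeat loci were used. The cells were naive CD4+ T cells of the mouse, purified from spleen and pLN (as labelled) of animals with the genotype DDX55 KO. Stimulation was by plate-bound anti-CD3 at 5 ug/ml and anti-CD28 at 2.5 ug/ml, for 8 h or, in the 0 h groups, for no time. The 4 wild-type (WT) libraries of the same times, 2 per time, served to ask where the KO response differed. All 12 libraries entered the fit from which the spread was estimated. The sources used here do not give the exons removed, the promoter of any Cre, the age of the mice, or whether the 2 libraries per group stem from different mice. All p-values therefore measure only the spread between these samples, which may be technical.

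Naive T cells are small resting lymphocytes that wait in lymphoid organs for their antigen. Engaging the T cell receptor together with CD28 starts calcium, MAP kinase and NF-kappaB signalling, induces early transcription factors and cytokines such as IL-2, and switches on MYC-driven growth, in which cells build ribosomes, take up nutrients and later divide. Transcripts that keep the naive cell quiescent and recirculating are shut down at the same time. Ddx55 encodes a DEAD-box RNA helicase that is known to take part in assembly of the large ribosomal subunit, one of the processes that activation raises.

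Gene counts per library lay between 16810375 and 19126498 across the series. The labelled cell type was borne out by the level of CD4 T cell genes: 16 T cell identity genes summed to 11303.7 and 9919.7 CPM (read counts scaled to a common library size with TMM factors) in KO cells at 0 h, against 11614.7 and 11582.4 in WT cells. Genes of other cells were also present in the KO libraries at 0 h. The 15 tested neutrophil and granulocyte progenitor genes summed to 536.2 and 526.5 CPM there (58.4 and 13.8 in WT), the 13 basophil and mast cell genes to 329.2 and 843.8 (47.7 and 25.3 in WT) and the 7 tested eosinophil genes to 200.7 and 224.7 (20.4 and 3.4 in WT). Of the defining markers, Ly6g, Ms4a1 and Ccr3 had too few counts to be tested. These are bulk samples, in which fewer cells of a type and less RNA per cell cannot be told apart.

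Ddx55 itself (ENSMUSG00000029389, GRCm38 chromosome 5, 124552864 to 124569660) was present at a low and even level in KO cells. It stood at 19.5 and 19.0 CPM at 0 h and at 17.95 and 17.1 CPM at 8 h, a log2 fold change of -0.13 ± 0.11 (SE; edgeR adjusted p = 0.299). Both libraries at 8 h lay just below both at 0 h, without a call. In WT cells it stood at 45.3 and 51.2 CPM at 0 h and 68.7 and 64.1 CPM at 8 h, and the KO libraries at 24 h held 14.7 and 14.4 CPM against 52.9 and 55.2 in WT. Every KO library thus lay below every WT library. The WT log2 fold change was 0.46, and the difference between the KO and the WT change was -0.59 (adjusted p = 0.0768; 0.0436 with DESeq2).

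By 8 h the transcriptome of KO cells had turned over widely. Of 15679 genes tested, 4491 rose (28.6%) and 5155 fell (32.9%) at an adjusted p under 0.05, so that 61.5% passed in either direction. With a change of at least 2-fold as well, 2299 rose (14.7%) and 3341 fell (21.3%). Changes of 8-fold or more were seen in 370 genes that rose and 507 that fell, and changes of 64-fold or more in 68 and 52. The 2 libraries at 8 h lay above both at 0 h in 5700 genes (36.4%) and below both in 6592 (42.0%). The median over all genes was -0.10 on the log2 scale, and lay between -0.19 and -0.07 with other scalings, so small changes are read against it. By kind of gene, 3975 of 12398 protein-coding genes rose and 4509 fell, while 18 of 69 snoRNA genes rose and 0 fell.

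The genes with the largest rise, among those with a mean of 5 CPM or more and no overlap, included a cytokine receptor, chemokines and feedback regulators. Il2ra (ENSMUSG00000026770, chromosome 2, 11642807 to 11693193), the high-affinity chain of the IL-2 receptor, went from 2.26 and 2.51 CPM at 0 h to 841 and 821 CPM at 8 h, a log2 fold change of 8.44 ± 0.17 (edgeR adjusted p = 8.73e-14). Xcl1, a chemokine that attracts cross-presenting dendritic cells, went from 0.991 and 0.201 to 307 and 191 CPM (8.73 ± 0.46). Ccl22, a ligand of CCR4, had 0 counts in both libraries at 0 h and 39.1 and 18.9 CPM at 8 h, which is at least 367-fold higher when 3 counts over the group are taken as the floor. None of these groups overlapped. Npas4, an activity-dependent transcription factor best known from neurons, went from 0.110 and 0.100 to 80.0 and 72.4 CPM (9.41 ± 0.25). Its level at 0 h rested on few counts, and the SE does not cover their counting error. Bdh2, a dehydrogenase gene, had 1 count at 0 h and 1119 at 8 h, a ratio of 1190 with a counting interval from 213 to 47100. The list was completed by Chst2 (8.37 ± 0.16), a sulfotransferase gene, Akr1c18 (8.03 ± 0.23), Mir155hg (8.01 ± 0.29), the host transcript of miR-155, Il2 (8.01 ± 0.33) and Rgs16 (7.92 ± 0.28), a regulator of G protein signalling. In Mir155hg the 0 h libraries stood at 0.936 and 0.251 CPM and the 8 h libraries at 169 and 133 CPM.

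Igfbp4, a binding protein of insulin-like growth factors that is high in naive T cells, went from 2445 and 2031 CPM to 31.6 and 44.1 CPM (log2 fold change -5.88 ± 0.18, adjusted p = 4.12e-12). Dtx1, a Notch pathway ubiquitin ligase gene, went from 383 and 358 to 6.38 and 7.51 CPM (-5.74 ± 0.12). The gamma-glutamyl transferase genes Ggt1 (-6.44 ± 0.37) and Ggt5 (-5.28 ± 0.14), the transporter gene Slc16a5 (-6.44 ± 0.22), Lrrc75b (-5.55 ± 0.38) and the ciliary gene Drc1 (-7.59 ± 0.64) belonged to the same set. Slc16a5 was at 51.7 and 41.9 CPM at 0 h and at 0.565 and 0.497 CPM at 8 h. The calls of the remaining 3 were lost under some settings. Hspa1b, a heat shock chaperone gene, stood at 16.96 and 122 CPM at 0 h and at 1.36 and 0.938 CPM at 8 h, and it was no longer called without KO_0h replicate 2 or without either library at 8 h. Chil3, a myeloid lectin gene, stood at 16.3 and 5.26 CPM at 0 h and 0.226 and 0 CPM at 8 h, and was not called with DESeq2 or without either library at 8 h. Fosb, an AP-1 subunit gene, went from 458 and 292 to 6.44 and 8.78 CPM (-5.62 ± 0.98), a call that was lost without the KO libraries numbered 1.

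Early transcription factors downstream of the T cell receptor went in both directions. Of 30 such genes tested 19 rose, 7 fell and 4 did not pass (median log2 fold change 2.24). The NFAT and MAP kinase targets of the Egr and Nr4a families rose. Egr2, a zinc finger factor that restrains activation, went from 13.3 and 14.5 CPM to 494 and 478 CPM (5.13 ± 0.12). Nr4a3 went from 21.1 and 29.1 to 950.2 and 1014 CPM (5.29 ± 0.17), and Nr4a1, an orphan nuclear receptor used as a reporter of receptor signal, from 277 and 220.3 to 1959 and 1982 CPM (2.99 ± 0.54). The Nr4a1 call was lost without the KO libraries of either number, while its value stayed at 3.16 and 2.89. Irf4, which scales with receptor signal strength, went from 21.7 and 14.2 to 1638 and 1721 CPM (6.55 ± 0.25). The NF-kappaB genes Nfkb1 (2.57 ± 0.11), Nfkb2 (2.703), Rel (3.05) and Relb (2.12) rose as well. In Nfkb1 the 0 h libraries stood at 296 and 312 CPM and the 8 h libraries at 1891 and 1725 CPM.

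The AP-1 genes Fos, Fosb, Jun, Junb and Jund fell. Fewer of the 7 early response genes that fell were called when any single KO library of 0 h or 8 h was left out. The calls were fewest without the KO libraries numbered 1. Jun went from 907 and 803 CPM to 20.2 and 25.8 CPM (-5.22 ± 0.43) and Fos from 849 and 874 to 46.0 and 49.5 CPM (-4.17 ± 0.24). Junb fell by 2.09 on the log2 scale. Fosl1 (5.57) and Fosl2 (3.39), the Fos-related antigens, rose, so the family did not move as 1 unit. Batf, a partner of IRF4 at composite sites, fell from 36.2 and 31.9 to 11.3 and 11.98 CPM (-1.55 ± 0.12), and its groups did not overlap. The feedback genes of MAP kinase signalling split in a like manner, with 8 of 13 higher and 2 lower. Spry1 went from 3.08 and 2.61 to 599.9 and 562 CPM (7.67 ± 0.18) and Dusp4 from 2.92 and 1.25 to 161 and 152 CPM (6.24), while Dusp1 fell from 420.0 and 305 to 59.6 and 59.5 CPM (-2.61). Dusp1 is itself an immediate early gene.

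Promoters of the early response genes were searched on both strands for a narrow form of the NF-kappaB decamer, fixed at all but a single base. The search covered the 300 bases from 250 before to 50 after each gene's start (RefSeq, GRCm38.p6). Looser forms of the site were not searched, so a promoter without a match may still hold such a form. The narrow form was found in 2 of 22 early response promoters (9.1%) and 3 of 20 cytokine promoters (15.0%). It was found in 0 of 17 promoters of activation receptors and 0.5% of all 27025 promoters in the table. Among the early response genes it was found in Nfkb2, which rose, and Nfkbia, which did not pass; Ltb and Csf1, among the cytokine genes, fell. The promoter of Nfkb2 (chr19:46305445-46305744, plus strand) is shown because its RNA rose; capitals mark the match. It begins 10 bases after the start. A match is a run of letters and says nothing of binding.
Nfkb2: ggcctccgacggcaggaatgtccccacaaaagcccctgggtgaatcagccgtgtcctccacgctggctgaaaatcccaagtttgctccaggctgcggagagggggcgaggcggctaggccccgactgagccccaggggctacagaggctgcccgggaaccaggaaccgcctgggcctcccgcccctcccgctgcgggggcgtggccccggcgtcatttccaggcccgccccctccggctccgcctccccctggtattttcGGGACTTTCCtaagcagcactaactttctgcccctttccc

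Surface receptors and transporters of activated T cells rose almost as a whole. Of 25 tested, 24 rose, 0 fell and 1 did not pass (median 2.32). Tnfrsf9, which encodes the costimulatory receptor 4-1BB, went from 11.6 and 9.88 CPM to 795 and 633 CPM (6.06 ± 0.16). Pdcd1, which encodes the inhibitory receptor PD-1, went from 6.99 and 6.17 to 418 and 351 CPM (5.87 ± 0.16), and Tnfrsf4, which encodes OX40, from 18.01 and 16.5 to 257 and 204 CPM (3.74 ± 0.15). In all 3 genes both libraries at 8 h lay far above both at 0 h. Icos, a relative of CD28, went from 41.4 and 42.1 to 211 and 204 CPM (2.32 ± 0.10). The early activation marker Cd69 was already at 297 and 223 CPM at 0 h and reached 956 and 902 CPM (1.84 ± 0.32), and its call was lost without the KO libraries numbered 2. Cd44, the memory and activation marker, made a smaller step, from 29.1 and 26.7 to 44.4 and 55.5 CPM (0.84 ± 0.11). Nutrient uptake genes rose with them: Slc7a5, a large neutral amino acid transporter, from 73.1 and 56.4 to 431 and 390 CPM (2.66 ± 0.13), Tfrc, the transferrin receptor, from 68.6 and 64.3 to 466 and 358 CPM (2.63 ± 0.12), and Slc2a1, the glucose transporter GLUT1, from 35.7 and 33.5 to 83.8 and 67.2 CPM (1.13 ± 0.11). Ctla4, the CD28 antagonist, was the exception, at 18.01 and 12.1 CPM at 0 h and 14.6 and 15.5 CPM at 8 h (0.00 ± 0.52, adjusted p = 0.997). At 24 h the KO libraries held 63.9 and 60.4 CPM of Ctla4 and 287 and 273 CPM of Cd44, given here without a test.

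**Figure D1:**
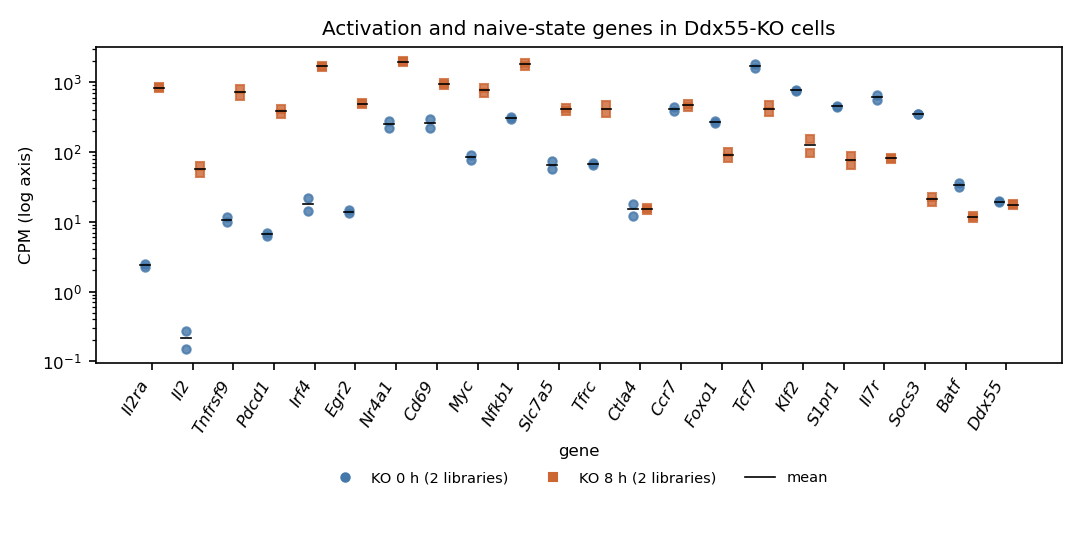
CPM (log axis) of 22 genes in the 2 KO libraries at 0 h (circles) and the 2 at 8 h (squares), with a line at each mean. Il2ra moves from about 2.4 to 831 CPM, Il7r and Klf2 move the other way, and the groups overlap in Ctla4.

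Cytokine and chemokine genes showed the highest median of all 40 lists, at low absolute levels for many members. Of 22 tested 16 rose, 3 fell and 3 did not pass (median 3.79, and 3.5 with Ccl1 and Il3, which had 0 counts at 0 h, at their lower bound). Il2, the T cell growth factor, went from 0.275 and 0.150 CPM to 62.0 and 49.9 CPM. Tnf went from 16.5 and 18.2 to 376 and 353 CPM (4.39 ± 0.15), Lta, which encodes lymphotoxin alpha, from 23.6 and 18.7 to 214 and 175 CPM (3.20 ± 0.13), and Tnfsf8, the CD30 ligand gene, from 110.1 and 125 to 821 and 743 CPM (2.74 ± 0.11). In these 3 TNF family members the groups did not overlap. Effector cytokines of differentiated helper cells rose from near 0: Ifng reached 14.9 and 10.6 CPM (3.32), Il17a 2.71 and 1.38 CPM (3.90) and Il22 0.339 and 1.16 CPM, the last from 1 count at 0 h. Il4 (-1.53) did not pass, and Il5, Il9, Il10 and Il13 had too few counts to be tested. Ccl5, a chemokine of memory and cytotoxic cells, fell from 114 and 52.8 to 25.2 and 13.1 CPM (-2.12), and Csf1 (-1.10) and Ltb (-0.52) fell too. Among 8 feedback genes of cytokine signalling, not all of them inhibitors, 4 rose and 2 fell, beside 28.6% and 32.9% of all tested genes. Fewer of the 8 rose when any single KO library of 0 h or 8 h was left out. Socs3, the feedback inhibitor of IL-6 family receptors, fell from 346 and 352 to 19.1 and 22.7 CPM (-4.06 ± 0.12), Bcl3 fell by 1.77 and Pim3 rose by 1.98.

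Genes of the naive and quiescent state fell in most cases. Of 32 tested 24 fell, 6 rose and 2 did not pass (median -1.86), against a background of 32.9% falling. Il7r, the receptor chain for the survival cytokine IL-7, went from 563 and 664 CPM to 81.5 and 80.4 CPM (-2.92 ± 0.12). Klf2, the factor that drives the homing programme, went from 751 and 779.5 to 95.9 and 156 CPM (-2.60 ± 0.32), and S1pr1, its egress receptor target, from 446 and 456 to 64.3 and 87.2 CPM (-2.57 ± 0.19). These genes fell without overlap, but Ccr7, the chemokine receptor of lymph node entry, did not: it stood at 441 and 388 CPM at 0 h and 483 and 443 CPM at 8 h (0.16 ± 0.14, adjusted p = 0.336). Tcf7, which encodes TCF-1, went from 1828 and 1613 to 368 and 469 CPM (-2.04 ± 0.14) and Foxo1, the quiescence factor upstream of Klf2 and Il7r, from 280.0 and 261 to 80.9 and 101 CPM (-1.57 ± 0.11). Txnip (-3.95), an inhibitor of glucose uptake, and Tsc22d3 (-4.33), the glucocorticoid-induced leucine zipper gene, were lower still. Pdk1, a gatekeeper of pyruvate oxidation, fell by 2.72. The 6 that rose were Id3 (1.70), Bach2 (1.68), Ddr1, Foxp1, Slfn2 and Btg2, of which Bach2, Foxp1 and Slfn2 are known keepers of quiescence.

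The receptor and its proximal signalling genes were not raised as a group: 7 of 20 rose and 12 fell (median -0.71). Over all tested genes 28.6% rose and 32.9% fell. Cd5, an inhibitory co-receptor that follows receptor signal strength, went from 415 and 390.2 CPM to 1405 and 1352 CPM (1.78 ± 0.10), and the adaptor gene Lcp2 (1.84) and the kinase gene Zap70 (1.55) rose. Cd4 fell from 1047 and 1044 to 260.0 and 277 CPM (-1.96 ± 0.09), Grap2 from 689 and 692 to 98.4 and 134 CPM (-2.57 ± 0.13) and Themis by 3.28 on the log2 scale. Of 16 T cell identity genes 10 fell and 2 rose (median -0.81), with Thy1 going from 903 and 743 to 145 and 145 CPM (-2.50 ± 0.13). Trac, the constant region of the receptor alpha chain, was level at 801 and 675 against 928 and 804 CPM (0.23 ± 0.12, adjusted p = 0.103). Among 20 T helper lineage genes 9 rose and 6 fell, and the share that fell was near that over all genes. Il12rb1 rose from 5.84 and 4.96 to 78.5 and 68.6 CPM (3.77 ± 0.13) and Bcl6, the follicular helper factor, from 23.0 and 17.95 to 119 and 118 CPM (2.54 ± 0.13), while Gata3 (-1.54) fell and Foxp3 (-0.03) did not pass.

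Among growth genes, Myc and most ribosome assembly genes rose. Myc went from 89.7 and 77.6 CPM to 826 and 701 CPM (3.19 ± 0.12, adjusted p = 1.85e-11), while of the 9 tested genes of its network 2 rose and 5 fell (median -0.30). Among those that fell were the MYC antagonists Mxd4, from 95.6 and 116 to 13.3 and 20.8 CPM (-2.64 ± 0.20), and Mxi1, from 18.4 and 19.0 to 4.46 and 6.57 CPM (-1.76 ± 0.18). Of the 41 tested genes in the list for assembly of the large (60S) ribosomal subunit, 39 rose and 2 fell (median 1.82). Ddx55 is known to act in this process. Nop2, an rRNA methyltransferase gene, went from 75.6 and 73.8 to 436 and 354 CPM (2.40 ± 0.11) and Rrs1 from 44.6 and 42.8 to 259 and 228 CPM (2.48 ± 0.10). Noc4l, which the list also holds though it belongs to small subunit assembly, went from 39.2 and 38.9 to 184 and 155 CPM (2.12 ± 0.10). In each of these genes the groups lay far apart. Nop53 (-0.46) and Nsa2 (-0.30) were the 2 that fell; 1 fell without KO_0h replicate 1, and 0 without KO_8h replicate 2 or in a fit of the compared libraries. Of 50 small subunit processome and nucleolar genes 49 rose and 0 fell (median 1.82), among them Naf1 (2.91 ± 0.11), Nol10 (2.80 ± 0.10), Rcl1 (2.55 ± 0.11) and the abundant Ncl, nucleolin, from 734 and 705 to 4549 and 3544 CPM (2.49). Genes of RNA polymerases I and III rose in 19 of 21 cases (median 1.18), led by Polr1b, from 52.0 and 53.05 to 312 and 255 CPM (2.43 ± 0.11). In none of these 3 lists did any member differ between KO and WT in its response at an adjusted p under 0.05.

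Ribosomal protein genes stood apart from the factors that assemble them. Of 78 tested, 7 rose and 19 fell, with a median of -0.13 beside -0.10 over all genes. Rps2 rose from 1763 and 1389 to 3011 and 2390 CPM (0.78 ± 0.13), and Rps27 (-0.75 ± 0.13) and Rpl39 (-0.71 ± 0.13) fell. The split turned with single libraries and scaling: it was 11 and 6 without KO_0h replicate 1, 2 and 32 without KO_0h replicate 2, 2 and 33 without KO_8h replicate 1, 17 and 5 without KO_8h replicate 2, and 2 and 29 with upper quartile factors. Translation factors rose in 22 of 25 cases with 0 falling (median 1.27), including Eif1a (2.31 ± 0.11), Eef1e1 (2.33 ± 0.12) and the cap-binding factor gene Eif4e (2.03); Eef1a1 (0.05) and Eef2 (-0.11), the main elongation factors, did not pass. Of 45 relatives of Ddx55 among the DEAD-box and DEAH-box helicases 30 rose and 9 fell (median 0.61). Ddx21, a nucleolar helicase, went from 267 and 295 to 1428 and 1203 CPM (2.23 ± 0.11) and Ddx10 from 51.7 and 62.5 to 192 and 169 CPM (1.66 ± 0.10). The 3 helicases that fell most, Ddx60, Ddx58 and Dhx58, are antiviral genes.

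Promoters of the ribosome assembly genes were searched for the E-box CACGTG, the motif that MYC and its partners can bind. On either strand (the motif is its own reverse complement) it was found in 5 of 34 promoters of the 60S list (14.7%). In the small subunit and nucleolar list it was found in 10 of 41 (24.4%), against 8.1% of all 27025 promoters in the RefSeq table. No test was made of these shares. The promoters of Nop2 (chr6:125131633-125131932, plus strand) and Nol11 (chr11:107189332-107189631, minus strand), whose RNA rose by 2.40 and 1.95, are shown with the E-box in capitals. It begins 60 and 43 bases before the start.
Nop2: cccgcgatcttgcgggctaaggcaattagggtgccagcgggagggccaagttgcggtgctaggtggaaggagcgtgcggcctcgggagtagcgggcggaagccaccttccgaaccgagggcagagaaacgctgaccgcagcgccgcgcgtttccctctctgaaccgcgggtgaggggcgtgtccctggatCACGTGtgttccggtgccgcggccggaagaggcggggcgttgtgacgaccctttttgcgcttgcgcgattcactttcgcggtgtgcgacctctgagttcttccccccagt
Nol11: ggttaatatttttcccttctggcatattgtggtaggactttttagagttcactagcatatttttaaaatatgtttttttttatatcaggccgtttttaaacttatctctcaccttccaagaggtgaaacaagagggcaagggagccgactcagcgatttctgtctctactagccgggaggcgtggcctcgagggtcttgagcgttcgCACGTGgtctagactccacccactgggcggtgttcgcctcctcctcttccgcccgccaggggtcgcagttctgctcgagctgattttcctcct

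Protein folding, protein breakdown and biosynthesis genes followed the growth genes. Of 31 proteasome genes 30 rose and 0 fell (median 1.13), with Psmd1 going from 62.1 and 63.0 CPM to 248 and 212 CPM (1.88 ± 0.10). Of 20 chaperonin and heat shock genes 16 rose and 4 fell (median 1.29), among them the mitochondrial chaperonin gene Hspd1, from 174 and 172 to 1040.3 and 835 CPM (2.44 ± 0.12), and Hspa9, from 214 and 197 to 872 and 738 CPM (1.97 ± 0.11). The count of 4 that fell shrank to 1 when single KO libraries were left out (without KO_0h replicate 2, KO_8h replicate 1 or KO_8h replicate 2). Of 28 genes of one-carbon and nucleotide synthesis 21 rose and 4 fell (median 1.29). Shmt1, serine hydroxymethyltransferase, went from 15.9 and 15.4 to 225 and 193 CPM (3.74 ± 0.11), Cad, the first enzyme of pyrimidine synthesis, from 92.0 and 85.9 to 600.2 and 543 CPM (2.68 ± 0.10) and Pfas, of purine synthesis, from 40.9 and 41.7 to 199 and 189 CPM (2.23 ± 0.10). Those that fell included Prps2, Psph and Tyms, of which Tyms makes thymidylate and is also an S phase gene.

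Lipid and carbon metabolism was less uniform. Of 28 cholesterol and fatty acid synthesis genes 19 rose and 5 fell (median 1.0). Idi1 went from 3.74 and 4.16 CPM to 33.0 and 38.1 CPM (3.17 ± 0.18) and Sqle from 14.3 and 12.1 to 68.4 and 68.8 CPM (2.38 ± 0.13), while Scd2 (-2.61) and Elovl6 (-2.44), which desaturate and elongate fatty acids, fell. Of 23 glycolysis genes 14 rose and 8 fell (median 0.76), beside 28.6% and 32.9% of all tested genes, so the share that fell was near that over all genes. The inducible hexokinase gene Hk2 went from 6.61 and 5.72 to 82.7 and 67.3 CPM (3.61 ± 0.16) and the lactate transporter gene Slc16a1 from 27.9 and 26.4 to 166 and 152 CPM (2.55 ± 0.11), whereas Hk1 (-0.91), Pfkm (-2.32) and Ldhb (-1.04), isoforms of resting cells, fell. Nuclear-encoded respiratory chain genes made small steps, with 33 of 53 higher and 4 lower (median 0.38). Those that fell numbered 7 without KO_0h replicate 2 or with upper quartile factors, and 2 without KO_8h replicate 2. Cycs, cytochrome c, went from 38.9 and 32.5 to 131 and 108 CPM (1.75 ± 0.12) and Atp5g1 from 64.8 and 53.9 to 203 and 155 CPM (1.59 ± 0.12). Of 12 mitochondrially encoded genes 0 rose and 2 fell; mt-Co1 stood at 6660.2 and 7025 CPM at 0 h and 4771 and 4240 CPM at 8 h (-0.60 ± 0.11), and the call of mt-Co2 was lost with RLE size factors, with DESeq2, and without KO_0h replicate 1 or KO_8h replicate 2.

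**Figure D2:**
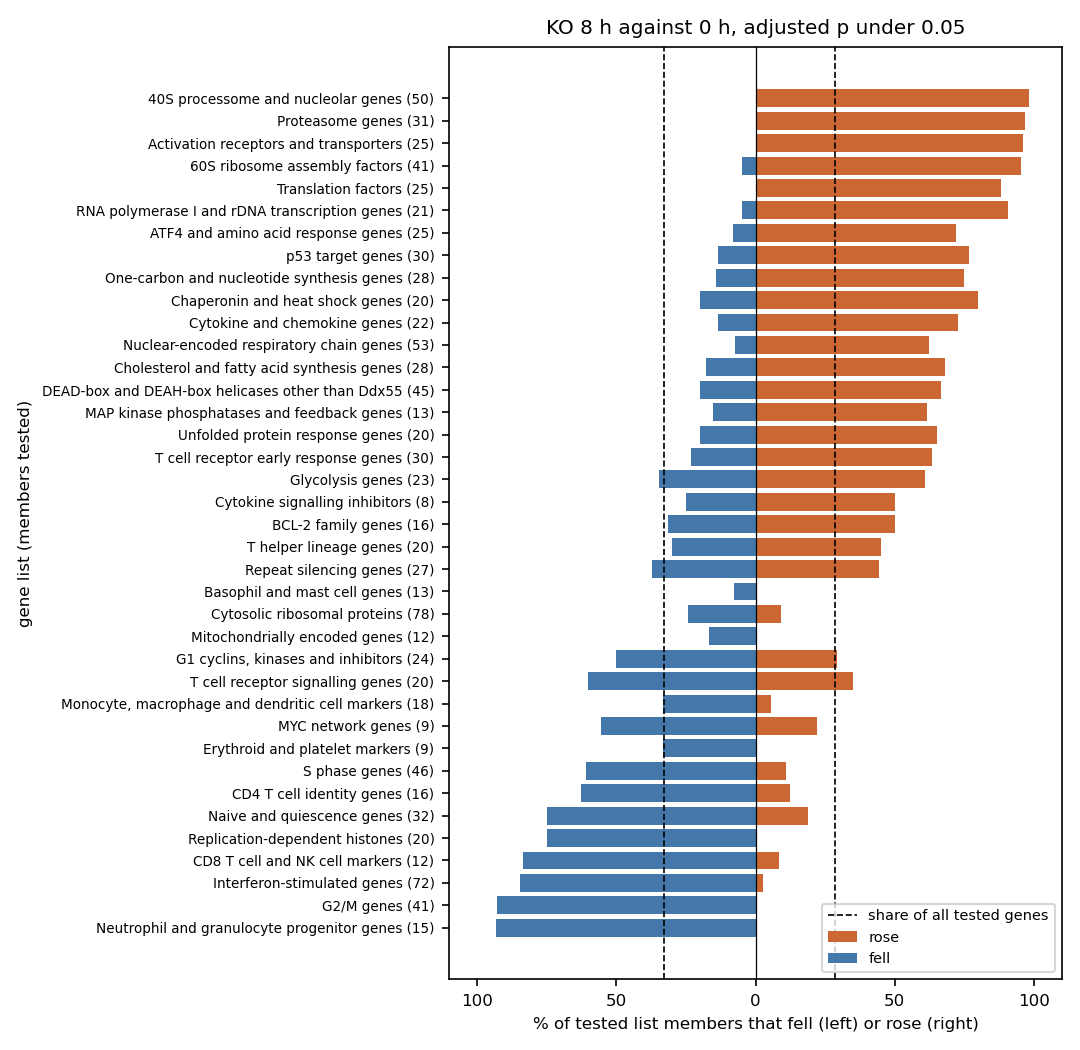
Share of the tested members of each list of 8 or more tested genes that rose (right) or fell (left) in KO cells at 8 h against 0 h, with the number tested in brackets and dashed lines at the shares over all tested genes (28.6% and 32.9%). Ribosome assembly, proteasome and receptor lists lie far to the right, and the G2/M, interferon-stimulated and granulocyte lists far to the left.

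Stress and survival genes moved with activation. Of 25 ATF4 and amino acid response genes 18 rose and 2 fell (median 1.24; 1 fell without KO_0h replicate 1 or either KO library at 8 h), among the risers aminoacyl-tRNA synthetase genes such as Iars, from 88.4 and 81.6 CPM to 386 and 360.0 CPM (2.13 ± 0.14), and Aars, from 77.8 and 60.7 to 252 and 229.5 CPM (1.80 ± 0.12); Ppp1r15a (-2.29) and Cebpb (-1.77) fell, and the stress genes Trib3 (0.19), Chac1 (0.82) and Asns (0.52) did not pass. Of 20 unfolded protein response genes 13 rose and 4 fell (median 0.62), with Hyou1 at 1.47 ± 0.09 and Canx at 1.39 ± 0.09. Of 30 p53 target genes 23 rose and 4 fell (median 1.37). Cdkn1a, which encodes the cell cycle inhibitor p21, went from 8.87 and 12.1 to 474 and 399 CPM (5.37 ± 0.37), Psrc1 from 20.8 and 22.3 to 151 and 139 CPM (2.75 ± 0.14), the nuclease gene Aen from 63.0 and 67.1 to 381 and 342 CPM (2.47 ± 0.09) and Bax from 73.9 and 64.0 to 240.3 and 210 CPM (1.71 ± 0.12). In WT cells 20 of the same 30 rose and 6 fell, beside 28.3% and 33.6% of all tested genes. Of 16 BCL-2 family genes 8 rose and 5 fell in KO, beside 28.6% and 32.9% of all tested genes. Bcl2a1d (5.73 ± 0.28) and Bcl2l1, which encodes the survival protein BCL-xL (20.6 and 14.9 to 233 and 194 CPM, 3.59 ± 0.16), rose, and Bcl2 (-1.63), which protects resting T cells, fell. The 3 Bcl2a1 genes are near-identical copies, so reads may be split between them.

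Cell cycle genes were mostly lower at 8 h than at 0 h in KO cells. Of 46 S phase genes 5 rose, 28 fell and 13 did not pass (median -0.54). In WT cells 23 of the same 46 rose and 9 fell (median 0.43), where 28.3% of all tested genes rose and 33.6% fell. Mcm2, a subunit of the replicative helicase, stood at 105.3 and 97.8 CPM at 0 h and 118 and 113 CPM at 8 h in KO (0.19 ± 0.08, adjusted p = 0.0665, but called with DESeq2, with RLE size factors and without KO_8h replicate 2), and at 81.8 and 84.4 CPM and then 173 and 165 CPM in WT. The WT libraries thus began below the KO libraries and ended above them. Mcm5 did likewise, from 79.0 and 69.6 to 97.6 and 92.7 CPM in KO and from 48.1 and 44.3 to 140.4 and 132 CPM in WT. Mcm10, which helps load the replication fork, fell in KO from 5.56 and 6.12 to 0.734 and 0.828 CPM (-2.89 ± 0.21) and stood in WT at 1.122 and 0.662 CPM at 0 h and 0.606 and 0.820 CPM at 8 h. Cdc6, a licensing factor, fell from 9.25 and 7.17 to 1.92 and 1.16 CPM in KO (-2.41). Chaf1b (-1.74 ± 0.13) and Rpa1 (-1.34 ± 0.09) fell as well, and their difference from the WT change did not pass.

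The difference from WT was largest in number among these S phase genes: in 20 of 46 the KO change was lower than the WT change at an adjusted p under 0.05, and in 0 it was higher, where 0.733% of all tested genes were lower and 0.261% higher. The count lay between 12 and 23 when single libraries were left out (12 without WT_8h replicate 1) and was 9 in a fit of the 8 compared libraries alone. In all 20 both KO libraries lay above both WT libraries at 0 h (19.7% of all genes), and in 13 both lay below them at 8 h (21.4% of all genes), in 1 above (22.1%). These levels belong to the contrast that chose the 20 genes and are given as a description. Of the 20, 14 fell and 1 rose in KO, and 13 rose and 1 fell in WT.

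**Figure D3:**
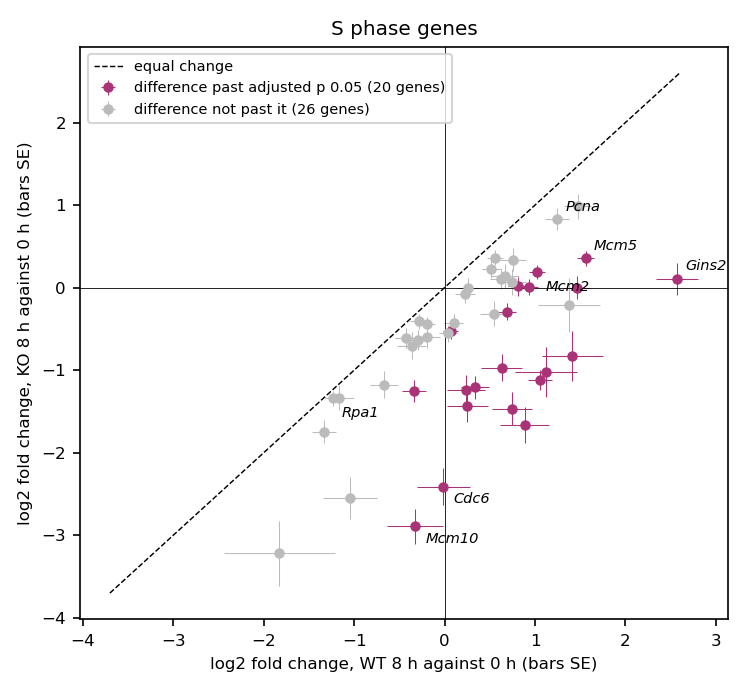
Log2 fold change from 0 h to 8 h of the 46 tested S phase genes in WT (horizontal) and KO cells (vertical), with bars of 1 SE and a dashed line of equal change. All 20 genes with a called difference lie below the line, among them Mcm2, Mcm5, Gins2, Cdc6 and Mcm10.

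Mitotic genes fell without exception among those called. Of 41 G2/M genes 38 fell and 0 rose (median -2.16, and -1.43 in WT). Mki67, the proliferation marker, went from 62.9 and 73.6 CPM to 10.2 and 15.3 CPM (-2.42 ± 0.34), Aurkb from 9.20 and 7.62 to 0.565 and 0.994 CPM (-3.41 ± 0.31) and Dlgap5 from 11.3 and 10.1 to 2.31 and 2.43 CPM (-2.17 ± 0.22). The summed CPM of the list went from 566.4 and 521.3 to 149.5 and 186.3 in KO, and began at 252.4 and 193.2 in WT. Of 20 replication-dependent histone genes 15 fell and 0 rose (median -3.60, and -3.07 with 6 genes of 0 counts in all libraries of a group at their bound); Hist1h1c, a linker histone, went from 36.8 and 41.8 to 1.13 and 2.59 CPM (-4.39 ± 0.25). Of 24 G1 cyclins, kinases and inhibitors 7 rose and 12 fell, beside 28.6% and 32.9% of all tested genes. Ccnd2, cyclin D2, rose from 459 and 594 to 1155 and 1216 CPM (1.17 ± 0.13), while Ccnd3 fell from 307 and 236 to 63.7 and 71.4 CPM (-2.01 ± 0.12), and the inhibitors Cdkn1b, p27 (233 and 244 to 47.5 and 60.8 CPM, -2.14 ± 0.13), and Cdkn2d (-3.97 ± 0.15) fell.

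Granulocyte genes fell over the same interval as the cell cycle genes. Of 15 neutrophil and granulocyte progenitor genes 14 fell and 0 rose (median -3.84; 11 or 12 fell when single libraries were left out), and their summed CPM went from 536.2 and 526.5 at 0 h to 22.8 and 48.1 at 8 h. Mpo, the peroxidase of neutrophil granules, went from 236 and 257 to 5.08 and 15.5 CPM (-4.58 ± 0.93), and S100a8 from 11.0 and 13.7 to 0.113 and 0.552 CPM (-5.18 ± 0.51). All 7 tested eosinophil genes fell (4 without KO_0h replicate 2, 3 without either library at 8 h), from a sum of 200.7 and 224.7 to 43.0 and 36.7 CPM. The 13 basophil and mast cell genes summed to 329.2 CPM at 0 h and 141.7 CPM at 8 h in the libraries numbered 1, and to 843.8 and 442.6 CPM in those numbered 2. The sum was lower at 8 h within each number, and the times overlapped. Of these genes 1, Cma1, fell, and 0 fell without KO_0h replicate 1. Prss34, a basophil protease, stood at 151 and 379 CPM at 0 h and at 40.03 and 131 CPM at 8 h (-1.63 ± 0.89, adjusted p = 0.16). The part that these cells have in the fall of S phase, G2/M and histone RNA was not tested.

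**Figure D4:**
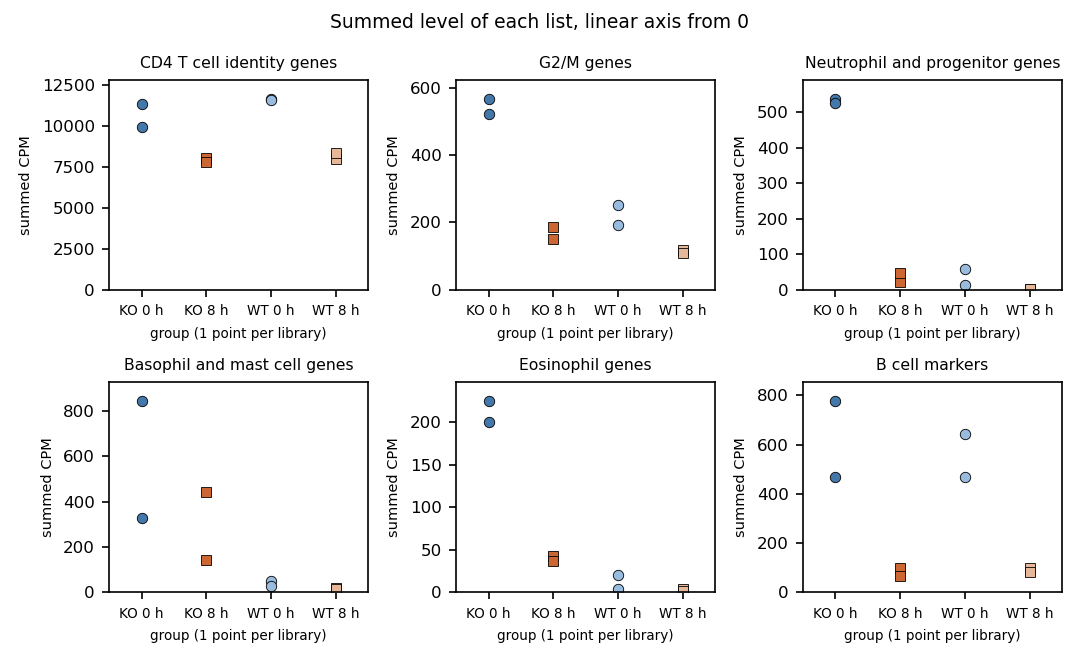
Summed CPM of 6 gene lists, 1 point per library, linear axes from 0, for KO and WT at 0 h and 8 h. Granulocyte, eosinophil and G2/M sums are highest in the 2 KO libraries at 0 h, and the basophil sum differs between libraries of a group.

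Markers of other lymphocytes, myeloid cells and red cells were also measured. Of 12 CD8 T and NK cell markers 10 fell and 1 rose (median -1.98), with Cd8b1 going from 21.4 and 17.05 to 4.404 and 5.02 CPM (-2.03 ± 0.23) and Prf1, perforin, from 67.6 and 47.3 to 24.4 and 16.7 CPM (-1.48 ± 0.20); Gzmb (0.94) was the 1 that rose, and 0 rose without KO_0h replicate 1, KO_0h replicate 2 or KO_8h replicate 1, or with upper quartile factors. Of 7 tested B cell markers 5 fell (3 without KO_8h replicate 2), among them Ighm, from 528 and 363 to 69.2 and 57.0 CPM (-2.82 ± 0.16). Of 18 monocyte and dendritic cell markers 6 fell and 1 rose, beside 32.9% and 28.6% of all tested genes. The sums of these markers overlapped between times (211.5 and 92.6 against 147.1 and 93.7 CPM). Without KO_0h replicate 1, 2 of them fell and 0 rose, and 0 rose without KO_8h replicate 2. Of 9 erythroid and platelet markers 3 fell and 0 rose, beside 32.9% and 28.6% of all tested genes. Fewer of these markers fell when any single KO library of 0 h or 8 h was left out, and 7 fell in a fit of the compared libraries alone. Their part in other results was not tested.

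Interferon-stimulated genes fell in most cases. Of 72 tested 61 fell, 2 rose and 9 did not pass (median -1.82, beside -0.10 over all genes). Over all tested genes 32.9% fell and 28.6% rose. Ddx58, the RNA sensor RIG-I, went from 177 and 228 CPM to 21.6 and 23.5 CPM (-3.16 ± 0.13, adjusted p = 8.26e-11). Usp18, the feedback inhibitor of the interferon receptor, went from 90.6 and 115 to 7.79 and 8.17 CPM (-3.69 ± 0.17) and Sp100, of PML nuclear bodies, from 625 and 750 to 95.6 and 116 CPM (-2.70 ± 0.13). Oas2 (-4.48) and Mx2 (-4.54), which act on viral RNA and on incoming viruses, fell most. Both 8 h libraries lay below both 0 h libraries in 61 of the 72, and in 42.0% of all tested genes. The 2 that rose were the guanylate-binding protein genes Gbp2, from 108 and 104 to 293 and 392 CPM (1.69), and Gbp3 (0.72), members of a family induced mainly by interferon gamma. In no member did the KO change differ from the WT change at an adjusted p under 0.05.

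The core of the interferon-stimulated response element, a pair of GAAA runs with NN between them, was found on either strand in 30 of 53 promoters of the list (56.6%), against 4.0% of all 27025. No test was made. Ddx58 (chr4:40239776-40240075, minus strand) and Phf11b (chr14:59341281-59341580, minus strand) are shown as the members with the smallest p that hold it, with the match in capitals; in Ddx58 it reads on the opposite strand. Phf11b fell from 65.0 and 73.9 CPM to 11.1 and 11.0 CPM (-2.65).
Ddx58: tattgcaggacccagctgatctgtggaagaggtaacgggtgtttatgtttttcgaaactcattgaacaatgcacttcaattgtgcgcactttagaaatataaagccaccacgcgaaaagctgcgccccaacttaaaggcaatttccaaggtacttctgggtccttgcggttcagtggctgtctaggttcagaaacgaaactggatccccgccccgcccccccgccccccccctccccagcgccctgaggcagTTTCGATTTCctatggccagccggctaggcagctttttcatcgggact
Phf11b: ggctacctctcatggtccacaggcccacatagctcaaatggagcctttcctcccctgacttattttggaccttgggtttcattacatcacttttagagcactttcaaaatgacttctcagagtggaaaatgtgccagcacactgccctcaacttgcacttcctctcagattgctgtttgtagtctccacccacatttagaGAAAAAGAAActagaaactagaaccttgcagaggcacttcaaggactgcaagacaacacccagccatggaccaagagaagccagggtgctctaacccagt

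Few single genes differed between the KO and the WT response. The change was higher in KO in 41 genes (0.261%) and lower in 115 (0.733%). Of the 41, 28 rose in KO, 6 fell and 7 did not pass there. Of the 115, 56 rose in KO, 37 fell and 22 did not pass. Both counts moved with the libraries used, from 7 to 121 and from 41 to 196 when 1 library was left out. Slc19a2, a thiamine transporter gene, rose from 7.10 and 7.72 CPM to 131 and 121 CPM in KO and from 7.15 and 8.73 to 42.1 and 44.4 CPM in WT (difference 1.64, adjusted p = 0.000315). Inka2 went from 13.3 and 12.03 to 67.0 and 61.2 CPM in KO, and stood at 10.3 and 11.1 and then at 15.3 and 15.5 CPM in WT (1.81, adjusted p = 0.00404). In both genes the 0 h levels were close and the 8 h levels were far apart. Enc1 (1.60), Zfp365 (1.46) and Rgs12 (1.44) followed. The call of Rgs12 was lost without any 1 of the KO libraries, that of Enc1 without KO_0h replicate 1 or KO_8h replicate 2, and that of Zfp365 without WT_8h replicate 1.

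The 5 genes named for a lower response in KO had higher KO levels at 0 h than WT. These levels belong to the contrast that chose the 5 genes and are given as a description. Over all genes, both KO libraries lay above both WT libraries at 0 h in 19.7%. Hk2 stood at 6.61 and 5.72 CPM in KO and 1.36 and 1.20 CPM in WT at 0 h, and at 82.7 and 67.3 against 122 and 97.6 CPM at 8 h (difference -2.81, adjusted p = 0.000315). Dnph1, a nucleotide hydrolase gene, stood at 1.93 and 2.26 against 0.473 and 0.241 CPM at 0 h (-3.07, adjusted p = 0.00843), and the actin nucleator gene Spire1 at 4.41 and 2.56 against 0.709 and 0.542 CPM (-2.77). Tnfrsf21 (-2.60) and Wee1 (-2.54), the kinase that holds CDK1 inactive, completed the named genes. At 8 h Tnfrsf21 stood at 13.5 and 10.8 CPM in KO and 12.7 and 10.8 CPM in WT. The Dnph1 and Tnfrsf21 calls were lost without WT_0h replicate 2.

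By list, the differences outside S phase were few. Of 20 chaperonin and heat shock genes 6 were lower in KO (3 without WT_8h replicate 1, 9 without KO_8h replicate 1), among them Hspa8, from 1703 and 1632 CPM to 2679 and 2431 CPM in KO, where the difference was -1.36, and Hsph1 (-1.37). Of 20 unfolded protein response genes 4 were lower (2 without WT_0h replicate 2 or either WT_8h library, 8 without KO_0h replicate 2), among them Pdia6 (-0.65, adjusted p = 0.0282). Among the 30 p53 targets the KO response was higher in 5 and lower in 1. Zmat3, an RNA-binding factor gene, went from 39.1 and 43.8 to 169 and 183 CPM in KO and from 27.3 and 24.7 to 55.3 and 61.1 CPM in WT (0.92, adjusted p = 0.0125), and Polk, a translesion polymerase gene, had a difference of 1.32. Psrc1 was the 1 that was lower, from a KO level of 20.8 and 22.3 CPM at 0 h against 0.709 and 0.963 in WT (-2.06, adjusted p = 0.00391). The 5 became 3 without WT_0h replicate 1 or WT_8h replicate 2, and 1 without WT_8h replicate 1. Of 30 early response genes Egr2 (0.74, adjusted p = 0.0299) and Egr3 (0.98, adjusted p = 0.013) were higher, and neither passed without WT_8h replicate 1 or WT_0h replicate 1.

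Whether repeat RNA changed in total could not be decided with 2 libraries per time. Repeats are copies of mobile elements and satellites scattered through the genome, and many lie inside genes, so that a gene's transcript counts at the repeats within it. Counts at LTR, LINE, SINE and DNA transposon loci amounted to 8.42% and 9.79% of gene counts at 0 h and to 7.24% and 8.92% at 8 h in KO cells. The ranges overlapped, and the difference of -1.03 points had an exact two-sided permutation p of 0.667, where 0.333 is the smallest that 2 against 2 allows. Such a test could not call any difference. Within each library number the share was lower at 8 h. In WT cells the share went from 10.25% and 9.73% at 0 h to 7.46% and 8.09% at 8 h. Of 1181 subfamilies tested (satellites included) 98 rose (8.3%) and 206 fell (17.4%). LTR elements, the endogenous retroviruses, gave 60 that rose and 152 that fell of 775, LINEs 12 and 21 of 175, SINEs 1 and 6 of 37 and DNA transposons 24 and 26 of 191.

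Among subfamilies with a mean count of 100 or more, the 5 largest rises and 5 largest falls each rested on a few loci within genes. RLTR44-int~RLTR44C went from 17.95 and 17.05 CPM to 193 and 141 CPM (log2 fold change 3.26 ± 0.17, adjusted p = 4.33e-09), and 99.1% of its counts lay in exons, at neighbouring loci in Slc29a3 (GRCm38 chromosome 10, from 60712367 to 60715002). MLTR13 (2.16 ± 0.18) had 95.5% of its counts at 1 exonic locus of the p53 target Aen (chromosome 7, 78908890 to 78909955), which itself rose. RLTR45-int~RLTR9A (3.02 ± 0.24) lay wholly in an exon of Tma16, Charlie24 (2.59 ± 0.24) mostly in Zbed5, and MER74B (2.19 ± 0.19) mostly in introns of Gramd1b. Among those that fell, ERVB2_1-I_MM~RLTR13D2 went from 435 and 645 to 53.9 and 68.1 CPM (-3.15 ± 0.25), with 74.8% of its counts in Ifi213 and 25.2% in Ifi208 on chromosome 1, both interferon-stimulated genes. ERVB2_1-I_MM (-2.70 ± 0.30) and IAPEY3_LTR~IAPEy-int (-2.59 ± 0.50) held 99.4% and 98.7% of their counts in Ifi213, and BGLII~RMER3D-int (-2.39 ± 0.23) held 96.1% in an exon shared by Itga4 and Cerkl. IAPEY4_I-int~RLTR46B (-2.61 ± 0.17) held 99.8% at a single exonic locus on chromosome 6.

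Intergenic loci gave a smaller set. Of the 304 subfamilies called over all loci, 203 could be tested on their intergenic loci, and 47 were called there in the same direction. Examples chosen after their values were seen were RMER12B, from 194 and 190.4 CPM to 80.6 and 106 CPM (-1.05 over all loci and -1.26 over intergenic loci) and IAPLTR2_Mm (-1.39 and -1.59). MERVK26-int (0.80 and 1.93) and MMERGLN-int~RLTR1A2_MM (1.46 and 2.48) rose over both. In the difference between the KO and the WT change 0 subfamilies were higher (0.0%) and 0 lower (0.0%) in edgeR, with 77 and 5 at an unadjusted p under 0.05, and 0 and 0 in DESeq2. Of 27 genes of repeat silencing 12 rose and 10 fell (median 0.11), beside 28.6% and 32.9% of all tested genes. The DNA methyltransferase gene Dnmt3a rose from 111 and 120.3 to 489 and 508 CPM (2.11 ± 0.10). The helicase gene Mov10 (-1.89 ± 0.12) and the H3K9 methyltransferase gene Ehmt2 (-1.63 ± 0.10) fell.

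**Figure D5:**
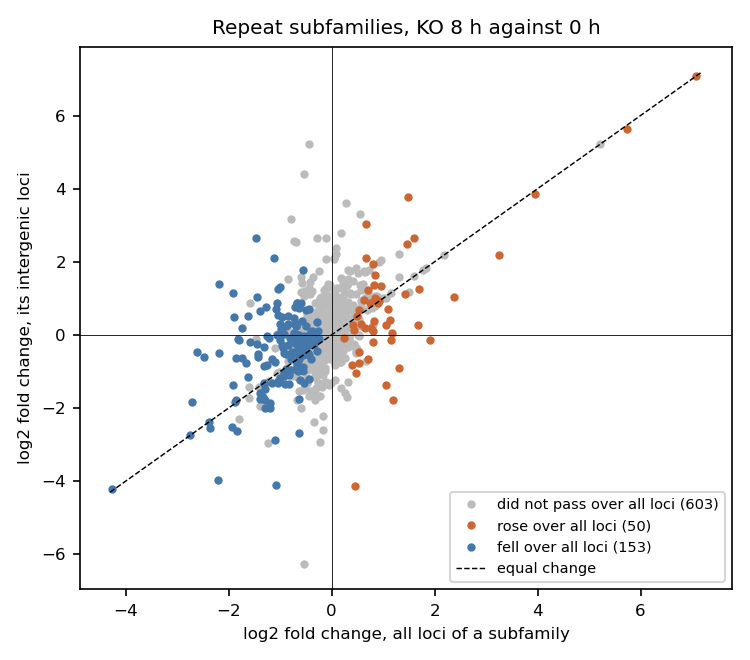
Log2 fold change of each repeat subfamily in KO cells at 8 h against 0 h over all its loci (horizontal) and over its intergenic loci (vertical), for subfamilies that could be tested on both, coloured by the call over all loci. Many called points lie near 0 on the vertical axis, and 47 were called the same way on both.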

How the data were processed

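Stranded total RNA libraries were made after rRNA depletion, per the labels' protocols. Per the submitters' processing notes, the mm10 build, STAR 2.7.1a and fastp 0.12.4 were used. The sources used here do not name the counter, its annotation, or how reads with several matches or UMIs were treated. The deposited tables hold raw read counts, 1 for 54232 genes and 1 for 3156417 repeat loci, with no normalization by the authors that the values show. Gene names and lengths came from GENCODE M21 (54165 matched), and promoters from RefSeq GRCm38.p6.

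Genes were filtered with edgeR 4.0.16's filterByExpr by group (count of 10, total of 15; 15679 kept, 38553 removed), scaled with TMM factors and tested with a quasi-likelihood fit of all 12 libraries (R 4.3.3; a mean for each group, leaving 6 residual degrees of freedom). Contrasts were KO 8 h against 0 h, and that change minus the WT change. Each SE was derived as the absolute log2 fold change over the square root of the test's F value. It is not a counting interval and can be too small where a group has few counts. A gene was called at a two-sided, Benjamini-Hochberg adjusted p under 0.05 and said to have risen or fallen. The steps were tested on simulated data, where the share of false calls lay above the nominal rate. Repeat counts were summed per subfamily and used the gene table's library sizes. Depth of 16810375 to 19126498 gene counts per library sets the counting error. Ratios with 0 to 3 counts have a floor of 3 counts or an exact interval of 95%, for counting error only.

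The members, the 40 gene lists and the alternatives (scalings, DESeq2 1.42.0, filters, smaller fits, a replicate block, left-out libraries) were chosen with earlier results of these data known. Genes were named by a rule: Ddx55, the 10 largest rises and 10 largest falls without overlap (mean CPM 5 or more), the smallest p-values of each list (3 at most), a panel of activation genes, and 5 per direction for the difference from WT and 5 repeat subfamilies per direction. Other list members in the text were named after their values were seen. Whether same-numbered libraries share mice is not stated in the sources used here. Their deviations correlated at 0.288 between KO 0 h and KO 8 h, the highest of all pairs of groups, and at -0.1 to 0.241 between other groups. Genes of other cells are counted in every library, and strand use in counting is not stated, so overlapping genes cannot be told apart. A few list members are counted in the lists but not reported here by name.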

Additional observations from a re-analysis of the deposited data

Results flagged for a closer look

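The response from 0 h to 8 h differed between KO and WT, by a test of the difference itself (the interaction term of the edgeR fit), in 156 genes. In 41 genes the change was higher in KO and in 115 it was lower. Among named genes with a higher response the difference was 1.81 for Inka2, 1.64 for Slc19a2, 1.60 for Enc1, 1.46 for Zfp365 and 1.44 for Rgs12 on the log2 scale. Among those with a lower response it was -3.07 for Dnph1, -2.81 for Hk2, -2.77 for Spire1, -2.60 for Tnfrsf21 and -2.54 for Wee1. Groups of 2 libraries are too small for a test of single outlying libraries.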

How the results depend on the processing

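Every alternative run kept the counts of genes that rose (3869 to 4712) and fell (4170 to 5604) within 1.5 times, left-out libraries included. The difference from the WT change was less stable. Against 41 higher and 115 lower, it gave 133 and 312 without a filter, 11 and 49 in a fit of the compared libraries, 100 and 199 without the KO libraries numbered 1, 73 and 179 without those numbered 2, and 237 lower with DESeq2. With 1 library left out it ranged from 7 to 121 higher (7 without WT_8h replicate 1, 121 without KO_0h replicate 2) and from 41 to 196 lower, by the same libraries. Such fits assume that the lone sample varies like the other groups. The number of subfamilies that rose was 98, 191 with the repeat table's own library sizes, 38 on intergenic loci and 65 to 96 with 1 library left out. The number that fell was 206, 64 on intergenic loci and 108 to 256 with 1 library left out. With the replicate block within genotype, which the numbers do not establish as a pairing, 4629 genes rose, 5442 fell, 105 were higher and 233 lower than in WT. Of the basophil and mast cell genes 8 fell and 1 rose under the block (1 and 0 without it), and of the erythroid and platelet markers 9 fell (3 without it). Under this block 146 subfamilies rose, 331 fell, and 15 were higher and 3 lower than in WT. The cause was not tested. The repeat counts relative to gene counts, KO 8 h against 0 h, moved from -1.03 to between -1.867 and -0.165 points over its alternatives. The -0.165 points were for intergenic loci only, a part of the whole. As a ratio of 8 h over 0 h, intergenic loci gave 0.901 and all loci 0.887. Of 2520 alternative values for single genes 2439 kept their call, 69 lost it, 12 gained it and 0 reversed; 235 of 240 list counts stayed within 1.5 times under other scalings. Depth limits genes under about 1 CPM, and 2 libraries per group limit every p.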
